A study of Homo sapiens with 4 samples.

Results

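Phase II conjugation enzymes attach glucuronic acid, glutathione, sulfate, an acetyl group or a methyl group to drugs, steroids, bilirubin and other lipophilic compounds, and 41 gene symbols of these families were followed in 2 liver cancer cell lines after knockdown of the lipid desaturase SCD. The 41 symbols are UGT, GST and MGST, SULT and NAT genes and the methyltransferases TPMT and NNMT, out of 25343 symbols listed per library. They were chosen with earlier results of these data known, and other genes of these families, such as UGT2B28 and SULT1C4, were left out. Their counts beside all genes are not free of that choice. SULT1A3 and SULT1A4 were summed, because their coding sequences are identical over 906 of 906 bases, so 40 genes are described. The samples were Huh7 cells with SCD knockdown, Huh7 control cells, PLC/PRF/5 cells with SCD knockdown and PLC/PRF/5 control cells, with 1 RNA-seq library in each of the 4 groups. Both lines come from human hepatocellular carcinoma. The knockdown cells carried 1 lentiviral hairpin directed at SCD1 (stearoyl-CoA desaturase, listed under the symbol SCD), the control cells carried a non-target lentiviral construct, and all 4 cultures had been selected with puromycin and grown in the same serum-containing medium. The series compared expression with and without SCD1 in each line.

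Glucuronidation, sulfation and glutathione conjugation are the main routes by which hepatocytes turn fat-soluble compounds into water-soluble ones that leave in bile or urine. UDP-glucuronosyltransferases (UGT) sit in the endoplasmic reticulum membrane and use UDP-glucuronic acid, the sulfotransferases (SULT) are cytosolic and use the sulfate donor PAPS, and the glutathione transferases are cytosolic (GST) or membrane-bound (MGST). N-acetyltransferases (NAT) use acetyl-CoA and the methyltransferases use S-adenosylmethionine. In liver these genes are known targets of hepatocyte factors such as HNF4A and of xenobiotic sensors such as AHR, the pregnane X receptor NR1I2 and NRF2 (gene symbol NFE2L2).

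Expression is given as TPM, an abundance relative to all transcripts of a library that divides by transcript length and so can be compared between genes. SCD stood at 137 TPM in Huh7 knockdown cells and 1755 TPM in Huh7 control cells, and at 178 TPM in PLC/PRF/5 knockdown cells and 1111 TPM in PLC/PRF/5 control cells, so both knockdown libraries matched their label. All 9 hepatocyte markers reached 1 TPM in the Huh7 libraries and 8 of 9 did in the PLC/PRF/5 libraries, where the thyroid hormone carrier TTR stood at 0.16 TPM in knockdown cells and 0.41 TPM in control cells. The summed level of the 9 markers was 17246 TPM in Huh7 knockdown cells and 14965 TPM in Huh7 control cells, against 3347 TPM in PLC/PRF/5 knockdown cells and 4926 TPM in PLC/PRF/5 control cells. The higher sum in Huh7 knockdown cells came from ALB, at 10479 TPM in knockdown cells and 6498 TPM in control cells, since the other 8 markers summed to 6767 TPM in Huh7 knockdown cells and 8467 TPM in Huh7 control cells, and 5 of the 9 were lower in knockdown cells. The 2 biliary markers summed to 564 TPM in Huh7 knockdown cells and 274 TPM in Huh7 control cells, nearly all of it KRT19, and to under 9 TPM in both PLC/PRF/5 libraries. The 3 epithelial markers summed to 5325 TPM in Huh7 knockdown cells and 3946 TPM in Huh7 control cells, and to 3082 TPM in PLC/PRF/5 knockdown cells and 2388 TPM in PLC/PRF/5 control cells. The 2 fetal liver markers summed to 11373 TPM in Huh7 knockdown cells and 16603 TPM in Huh7 control cells, and to 51.9 TPM in PLC/PRF/5 knockdown cells and 83.6 TPM in PLC/PRF/5 control cells. Of 3 leukocyte markers the macrophage gene CD68 alone reached 1 TPM, with the list summing to between 9.06 and 27.0 TPM. The 2 endothelial markers summed to between 1.47 and 3.39 TPM, and the 3 fibroblast markers to 16.5 TPM in Huh7 knockdown cells, 44.2 TPM in Huh7 control cells and under 1 TPM in both PLC/PRF/5 libraries. The part of these marker levels in the results was not tested. Levels are per unit of RNA from a whole culture, so fewer expressing cells and less RNA per cell cannot be told apart.

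In Huh7 the UGT2 family, UGT1A1 and NNMT were higher in knockdown cells, while the most abundant enzyme, GSTP1, and the alpha-class enzymes GSTA1 and GSTA2 were lower. In PLC/PRF/5 most of the conjugation genes considered were lower in knockdown cells, with the deepest values in the mu-class enzymes GSTM4 and GSTM1. Fold changes are log2((knockdown TPM + 1)/(control TPM + 1)), which shrinks the differences of genes with little TPM, and a gene was considered in a line when it reached 1 TPM in at least 1 library of the pair. In Huh7, 35 of the 40 genes were considered. Of these, 22 were higher and 13 lower in knockdown cells, where 8115 of all 13484 genes considered were higher and 5353 lower. The median log2 fold change was 0.19 for the conjugation genes, against 0.08 over all genes considered. At least 2-fold higher were 7 genes (UGT1A1, UGT2A3, UGT2B7, UGT2B10, UGT2B11, UGT2B15 and NNMT), or 20.0%, where 3.09% of all genes considered in Huh7 were that much higher. UGT2A3 and UGT2B15 reached 1 TPM in the knockdown library alone, so the filter could admit them only as higher genes. At least 2-fold lower was 1 gene, GSTA1, where the share of all genes was 1.53%. Past 2-fold in either direction were 8 genes, where 4.62% of all genes were. In PLC/PRF/5, 26 genes were considered, of which 6 were higher and 20 lower in knockdown cells. Of all 13056 genes considered there, 8279 were higher and 4763 lower. The median log2 fold change of the 26 genes was -0.37, against 0.10 over all genes. None was 2-fold higher, where 1.72% of all genes were, and 3 (GSTM1, GSTM4 and SULT1A1) were at least 2-fold lower, where 1.11% of all genes were lower and 2.83% were past 2-fold in either direction. Each group had 1 library, so a difference within a line has no replicate check, and these counts follow a rule of size, not a test. With a pseudocount of 5, 3 genes were past 2-fold as higher in Huh7, where 1.14% of all genes were, 0 as lower, where 0.675% were, and 1 as lower in PLC/PRF/5, where 0.414% were.

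**Figure D1:**
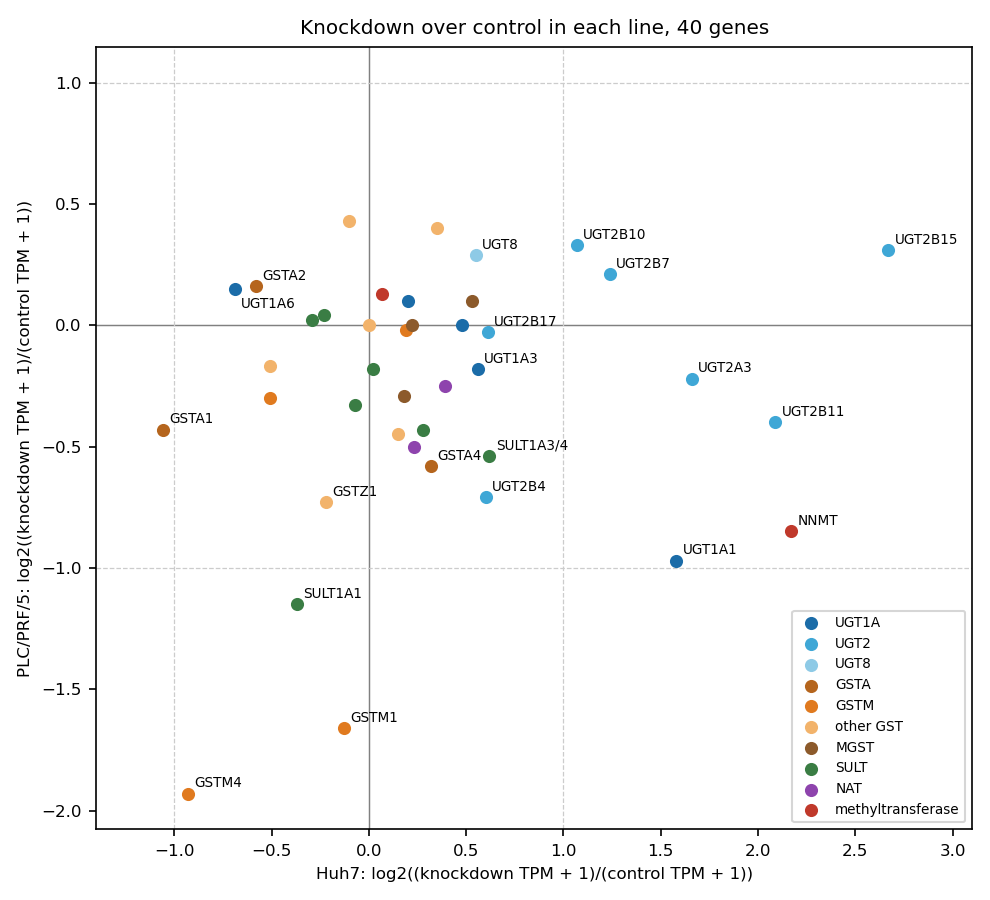
Each point is 1 of the 40 genes, placed by its log2 fold change (knockdown over control, TPM + 1) in Huh7 on the horizontal axis and in PLC/PRF/5 on the vertical axis, coloured by family; dashed lines mark 2-fold. The UGT2 genes spread to the right, up to 2.67 for UGT2B15, NNMT and UGT1A1 lie at lower right, and GSTM4 and GSTM1 lie lowest.

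The UGT1A genes are alternative first exons joined to one shared 3′ part, so they share much of their coding sequence. In GENCODE 29 transcripts, UGT1A1, the bilirubin-conjugating enzyme, UGT1A3 and UGT1A6 were identical over their last 741 coding bases, which is 46.3% of the coding length of UGT1A1, 46.2% of that of UGT1A3 and 46.3% of that of UGT1A6. The windows below show 45 bases on each side of the point where the shared part begins, with the shared bases in capitals. They are printed because a read that falls within the capitals belongs equally to all of these genes.
UGT1A1: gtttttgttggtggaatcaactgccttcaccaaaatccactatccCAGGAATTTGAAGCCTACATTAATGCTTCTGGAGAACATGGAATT
UGT1A3: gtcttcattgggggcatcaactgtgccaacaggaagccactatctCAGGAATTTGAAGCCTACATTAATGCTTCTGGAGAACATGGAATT
UGT1A6: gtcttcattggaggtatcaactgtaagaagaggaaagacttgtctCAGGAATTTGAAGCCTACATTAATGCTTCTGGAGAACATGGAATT

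UGT1A1 was higher in Huh7 knockdown cells and lower in PLC/PRF/5 knockdown cells than in the controls of the same line. It stood at 6.12 TPM in Huh7 knockdown cells and 1.38 TPM in Huh7 control cells, and at 44.9 TPM in PLC/PRF/5 knockdown cells and 88.5 TPM in PLC/PRF/5 control cells. The log2 fold change was 1.58 in Huh7 and -0.97 in PLC/PRF/5. Both PLC/PRF/5 libraries lay above both Huh7 libraries. UGT1A6, which conjugates small planar phenols, had 1.01 TPM in Huh7 knockdown cells and 2.25 TPM in Huh7 control cells, against 0.19 TPM in PLC/PRF/5 knockdown cells and 0.07 TPM in PLC/PRF/5 control cells. UGT1A3 ranged from 0.22 to 1.86 TPM over the 4 libraries, UGT1A4 from 0 to 0.39 TPM and UGT1A9 from 0 to 0.15 TPM. UGT1A1 made up 64.2% of the summed UGT1A TPM in Huh7 knockdown cells and 30.2% in Huh7 control cells, against 98.8% in PLC/PRF/5 knockdown cells and 99.4% in PLC/PRF/5 control cells. With the 5 UGT1A genes added together, the sum was 9.53 TPM in Huh7 knockdown cells and 4.57 TPM in Huh7 control cells, and 45.4 TPM in PLC/PRF/5 knockdown cells and 89.1 TPM in PLC/PRF/5 control cells, the same opposite order as for UGT1A1 alone. When the UGT1A symbols, with those outside the set, entered as 1 summed gene, 6 genes in place of 7 were at least 2-fold higher in Huh7, where 3.09% of all genes were. The summed gene was not among the 6.

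UGT2 enzymes conjugate steroids, bile acids and many drugs, and 5 of the 7 genes at least 2-fold higher in Huh7 knockdown cells belonged to this family. All 6 UGT2 genes considered in Huh7 were higher in knockdown cells, 5 of them at least 2-fold. UGT2A3 and UGT2B15 reached 1 TPM in the Huh7 knockdown library alone, so the filter could admit them only as higher genes. In PLC/PRF/5, of 3 considered, 1 was higher and 2 were lower, none of them 2-fold. The higher one, UGT2B10, likewise reached 1 TPM in the PLC/PRF/5 knockdown library alone. UGT2B4, active on bile acids, was the most abundant UGT2 gene, with 102 TPM in Huh7 knockdown cells and 66.8 TPM in Huh7 control cells, and 8.4 TPM in PLC/PRF/5 knockdown cells and 14.4 TPM in PLC/PRF/5 control cells. UGT2B11 had 43.3 TPM in Huh7 knockdown cells and 9.39 TPM in Huh7 control cells, against 4.56 TPM in PLC/PRF/5 knockdown cells and 6.32 TPM in PLC/PRF/5 control cells. In both genes the Huh7 knockdown library was the highest of the 4, and the knockdown library was the lower of the pair in PLC/PRF/5. UGT2B15, which conjugates androgens, was at 7.72 TPM in Huh7 knockdown cells and 0.37 TPM in Huh7 control cells, and at 0.34 TPM in PLC/PRF/5 knockdown cells and 0.08 TPM in PLC/PRF/5 control cells. UGT2B7, which conjugates morphine and many other drugs, was at 7.44 TPM in Huh7 knockdown cells and 2.57 TPM in Huh7 control cells, and at 0.54 TPM in PLC/PRF/5 knockdown cells and 0.33 TPM in PLC/PRF/5 control cells. These genes were near the bottom of the measured range in PLC/PRF/5, under 1 TPM in both libraries, and their fold change there was not considered. UGT2A3 stood at 5.13 TPM in Huh7 knockdown cells and 0.94 TPM in Huh7 control cells, and at 0.41 TPM in PLC/PRF/5 knockdown cells and 0.64 TPM in PLC/PRF/5 control cells. UGT2B10, which conjugates nicotine and other amines, stood at 4.78 TPM in Huh7 knockdown cells and 1.75 TPM in Huh7 control cells, and at 1.5 TPM in PLC/PRF/5 knockdown cells and 0.99 TPM in PLC/PRF/5 control cells. UGT2B10 was the one UGT2 gene considered in both lines that was higher in both knockdown libraries. The Huh7 log2 fold changes were 2.67 for UGT2B15, 2.09 for UGT2B11, 1.66 for UGT2A3, 1.24 for UGT2B7, 1.07 for UGT2B10 and 0.60 for UGT2B4. UGT2B17, a close copy of UGT2B15, stayed between 0.04 and 0.63 TPM in the 4 libraries.

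The UGT2 genes and 2 sulfotransferase genes lie side by side on chromosome 4, in the order UGT2B17, UGT2B15, UGT2B10, UGT2A3, UGT2B7, UGT2B11, UGT2B28, UGT2B4, UGT2A2, UGT2A1, SULT1B1, SULT1E1. The 5 UGT2 genes at least 2-fold higher in Huh7 knockdown cells were consecutive in this order. Among them, UGT2B15 and UGT2A3 were considered through the Huh7 knockdown library alone, so the run is not free of the filter. UGT2B17 and UGT2B28, on either side of the 5 genes, stayed under 1 TPM in all 4 libraries and were not considered. Their Huh7 log2 fold changes, shrunk by the pseudocount, were 0.61 (UGT2B17) and 0.62 (UGT2B28), so the ends of the run are uncertain. UGT2B17 stood at 0.63 TPM in Huh7 knockdown cells and 0.07 TPM in Huh7 control cells. SULT1B1 and SULT1E1, at the end of the row, had Huh7 log2 fold changes of -0.07 (SULT1B1) and 0.28 (SULT1E1). UGT2B28, UGT2A2 and UGT2A1 are not among the 40 genes and were added after the values were seen, for their place in the row; UGT2B28 stood at 0.72 TPM in Huh7 knockdown cells and 0.12 TPM in Huh7 control cells. Sequence is shared within the cluster. Of the 31-base words of its coding sequence, UGT2B11 shared 75.5% with other genes, UGT2B10 62.0%, UGT2B15 49.3%, UGT2B7 26.8% and UGT2B4 17.8%. The coding sequences of UGT2B10 and UGT2B11 were 94.8% identical and those of UGT2B15 and UGT2B17 96.5%, so the division of reads among these genes is uncertain, and its part in their fold changes was not tested.

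**Figure D2:**
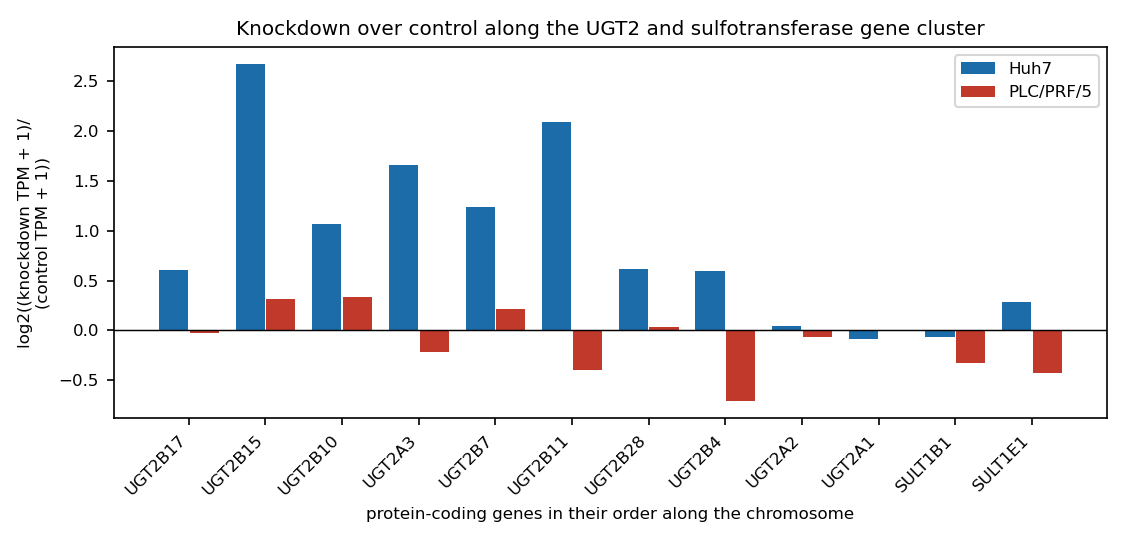
Log2 fold change (knockdown over control, TPM + 1) of the UGT2 and sulfotransferase genes in their order along chromosome 4, for Huh7 and for PLC/PRF/5; spacing is by order, not distance. Huh7 values run from 1.07 to 2.67 over the consecutive genes from UGT2B15 to UGT2B11, while PLC/PRF/5 values of the same genes lie between -0.40 and 0.33. UGT2B15, UGT2A3 and UGT2B7 were under 1 TPM in both PLC/PRF/5 libraries and not considered there, and the pseudocount shrinks their PLC/PRF/5 values.

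Of the UGT2 genes at least 2-fold higher in Huh7 knockdown cells, the promoter windows of UGT2B10, UGT2B11 and UGT2B15 are printed. They run from 250 bases before to 50 after the annotated start (RefSeq, GRCh38.p14). They lie at chr4:68815744-68816043 on the plus strand, chr4:69214699-69214998 on the minus strand and chr4:68670603-68670902 on the minus strand. Capitals mark matches, on either strand, to TATAAA, the TATA box letters, and to TGACNNNGC, the core of the antioxidant response element bound by NRF2.
UGT2B10: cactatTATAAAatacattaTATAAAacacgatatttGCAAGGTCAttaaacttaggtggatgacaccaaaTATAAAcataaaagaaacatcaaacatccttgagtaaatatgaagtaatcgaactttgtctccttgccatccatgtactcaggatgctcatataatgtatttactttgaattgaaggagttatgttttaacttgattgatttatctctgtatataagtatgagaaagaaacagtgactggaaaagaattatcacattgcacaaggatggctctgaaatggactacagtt
UGT2B11: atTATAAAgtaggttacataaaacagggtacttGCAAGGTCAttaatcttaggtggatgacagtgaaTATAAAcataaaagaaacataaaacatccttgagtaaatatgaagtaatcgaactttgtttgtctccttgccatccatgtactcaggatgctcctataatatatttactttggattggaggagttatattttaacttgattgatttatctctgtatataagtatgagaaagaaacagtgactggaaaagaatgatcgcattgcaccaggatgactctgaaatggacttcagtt
UGT2B15: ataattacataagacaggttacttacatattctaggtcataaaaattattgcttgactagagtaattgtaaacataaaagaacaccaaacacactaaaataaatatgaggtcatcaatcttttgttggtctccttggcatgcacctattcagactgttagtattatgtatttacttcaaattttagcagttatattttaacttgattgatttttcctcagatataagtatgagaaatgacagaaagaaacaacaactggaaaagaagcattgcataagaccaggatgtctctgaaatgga
The UGT2B10 and UGT2B11 windows were 90.1% identical and held the same TGACNNNGC match, GCAAGGTCA on the opposite strand, at 213 bases before the start in UGT2B10 and 217 bases before it in UGT2B11. The UGT2B15 window was 69.5% identical to that of UGT2B11 and held neither set of letters. The windows of UGT2A3 and UGT2B7, also at least 2-fold higher in Huh7 knockdown cells, are not printed and held neither set as well. The TGACNNNGC match was thus limited, among these UGT2 genes, to the near-copies UGT2B10 and UGT2B11. Of 35116 promoter windows of the same length, 13.3% held TGACNNNGC and 11.5% held TATAAA. Among the 32 genes of the set with a window, 7 (21.9%) held TGACNNNGC and 8 (25.0%) held TATAAA. A match of letters describes the sequence and is not evidence of binding.

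UGT8, the galactosyltransferase of myelin lipid synthesis, is a relative that uses another sugar. It had 5.44 TPM in Huh7 knockdown cells and 3.39 TPM in Huh7 control cells, and 2.66 TPM in PLC/PRF/5 knockdown cells and 2.0 TPM in PLC/PRF/5 control cells. Both knockdown libraries were above their own control, by less than 2-fold.

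The alpha-class glutathione transferases, abundant in normal hepatocytes, were low in PLC/PRF/5 except for GSTA4, and GSTA1 was the only gene of the set at least 2-fold lower in Huh7 knockdown cells. GSTA1 had 7.38 TPM in Huh7 knockdown cells and 16.5 TPM in Huh7 control cells, a log2 fold change of -1.06. In PLC/PRF/5 it was listed at 0 in knockdown cells and at 0.35 TPM in control cells. GSTA2 had 4.43 TPM in Huh7 knockdown cells and 7.11 TPM in Huh7 control cells, and 0.17 TPM in PLC/PRF/5 knockdown cells and 0.05 TPM in PLC/PRF/5 control cells. The Huh7 levels of both genes were lower with the knockdown and all Huh7 levels lay above all PLC/PRF/5 levels. GSTA4, which detoxifies the lipid peroxidation product 4-hydroxynonenal, was at 61.0 TPM in Huh7 knockdown cells and 48.9 TPM in Huh7 control cells, and at 40.7 TPM in PLC/PRF/5 knockdown cells and 61.4 TPM in PLC/PRF/5 control cells. Its order was thus opposite in the lines, with log2 fold changes of 0.32 (Huh7) and -0.58 (PLC/PRF/5).

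The promoter windows of GSTA1 and GSTA2 (RefSeq, GRCh38.p14, chr6:52803767-52804066 and chr6:52763426-52763725, both on the minus strand) are printed because both genes were lower in Huh7 knockdown cells and are near-copies. Capitals mark matches, on either strand, to TATAAA.
GSTA1: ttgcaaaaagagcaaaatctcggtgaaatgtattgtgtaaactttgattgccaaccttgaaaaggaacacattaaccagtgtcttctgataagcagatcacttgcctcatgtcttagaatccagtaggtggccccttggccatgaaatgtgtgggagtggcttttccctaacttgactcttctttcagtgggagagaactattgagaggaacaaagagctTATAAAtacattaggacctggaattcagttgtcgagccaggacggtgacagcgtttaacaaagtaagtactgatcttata
GSTA2: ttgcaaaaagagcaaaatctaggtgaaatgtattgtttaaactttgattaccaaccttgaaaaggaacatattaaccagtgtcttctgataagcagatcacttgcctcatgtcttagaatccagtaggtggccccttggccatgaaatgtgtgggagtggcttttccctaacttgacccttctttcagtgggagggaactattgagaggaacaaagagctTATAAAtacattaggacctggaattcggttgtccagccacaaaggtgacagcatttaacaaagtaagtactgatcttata
The windows were 96.0% identical, and the coding sequences 96.7%, so the division of reads between them is uncertain. Each held TATAAA at 30 bases before the start.

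Mu-class glutathione transferases were the family with the deepest values in PLC/PRF/5. GSTM4 was at 13.6 TPM in Huh7 knockdown cells and 27.0 TPM in Huh7 control cells, and at 9.18 TPM in PLC/PRF/5 knockdown cells and 37.7 TPM in PLC/PRF/5 control cells. Both knockdown libraries lay below both control libraries, with log2 fold changes of -0.93 (Huh7) and -1.93 (PLC/PRF/5). GSTM1, an enzyme deleted in many people, was at 61.8 TPM in Huh7 knockdown cells and 67.7 TPM in Huh7 control cells, against 0.91 TPM in PLC/PRF/5 knockdown cells and 5.03 TPM in PLC/PRF/5 control cells. Its log2 fold change was -0.13 in Huh7 and -1.66 in PLC/PRF/5. GSTM1 and GSTM4 coding sequences were 85.6% identical over 714 aligned positions, with gaps counted as differences. The sequences compared were 714 bases (GSTM1) and 657 bases (GSTM4) long, so part of the difference is length. Of the 31-base words, 48.0% in GSTM1, 49.4% in GSTM4 and 69.0% in GSTM2 occurred in another gene. For GSTM2, 52.1% of the words occurred in GSTM4. The division of reads among GSTM1, GSTM2 and GSTM4 is therefore uncertain. GSTM2 was at 11.5 TPM in Huh7 knockdown cells and 16.7 TPM in Huh7 control cells, and at 20.9 TPM in PLC/PRF/5 knockdown cells and 26 TPM in PLC/PRF/5 control cells. GSTM3 was at 40.6 TPM in Huh7 knockdown cells and 35.6 TPM in Huh7 control cells, and at 27.3 TPM in PLC/PRF/5 knockdown cells and 27.7 TPM in PLC/PRF/5 control cells. Of the 4 mu-class genes, 3 were lower with the knockdown in Huh7 and 4 in PLC/PRF/5.

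GSTP1, the pi-class enzyme that is low in normal hepatocytes and common in tumours, was the most abundant gene of the set in every library. It stood at 1142 TPM in Huh7 knockdown cells and 1622 TPM in Huh7 control cells, and at 2295 TPM in PLC/PRF/5 knockdown cells and 2583 TPM in PLC/PRF/5 control cells, where it ranked 31 among all symbols. Both knockdown libraries were below their own control, with log2 fold changes of -0.51 (Huh7) and -0.17 (PLC/PRF/5). It made up 39.3% of the summed TPM of the set in Huh7 knockdown cells and 51.6% in Huh7 control cells, against 63.8% in PLC/PRF/5 knockdown cells and 61.8% in PLC/PRF/5 control cells. The summed TPM of the 40 genes was 2910 in Huh7 knockdown cells and 3140 in Huh7 control cells, and 3599 in PLC/PRF/5 knockdown cells and 4183 in PLC/PRF/5 control cells. Without GSTP1 the sum was higher in Huh7 knockdown cells (1768 TPM) than in Huh7 control cells (1519 TPM), and lower in PLC/PRF/5 knockdown cells (1304 TPM) than in PLC/PRF/5 control cells (1600 TPM).

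The other glutathione transferases differed by less than 2-fold in each line. GSTO1, an omega-class enzyme that reduces dehydroascorbate and arsenic compounds, was at 352 TPM in Huh7 knockdown cells and 317 TPM in Huh7 control cells, and at 144 TPM in PLC/PRF/5 knockdown cells and 197 TPM in PLC/PRF/5 control cells. GSTK1, the mitochondrial and peroxisomal kappa-class enzyme, was at 146 TPM in Huh7 knockdown cells and 114 TPM in Huh7 control cells, and at 130 TPM in PLC/PRF/5 knockdown cells and 98.0 TPM in PLC/PRF/5 control cells. GSTO2 was at 8.09 TPM in Huh7 knockdown cells and 8.72 TPM in Huh7 control cells, and at 1.19 TPM in PLC/PRF/5 knockdown cells and 0.63 TPM in PLC/PRF/5 control cells. GSTK1 was the gene of these 3 with both knockdown libraries above both controls. GSTZ1, which also works in tyrosine breakdown, lay between 7.46 and 13.0 TPM, and GSTT1 was listed at 0 in all 4 libraries. Of the membrane-bound enzymes, MGST1 had 500.2 TPM in Huh7 knockdown cells and 442 TPM in Huh7 control cells, and 447 TPM in PLC/PRF/5 knockdown cells and 548 TPM in PLC/PRF/5 control cells. MGST2, which can also make leukotriene C4, had 192 TPM in Huh7 knockdown cells and 165 TPM in Huh7 control cells, and 176 TPM in both PLC/PRF/5 libraries. MGST3 had 35.9 TPM in Huh7 knockdown cells and 24.5 TPM in Huh7 control cells, and 95.7 TPM in PLC/PRF/5 knockdown cells and 89.1 TPM in PLC/PRF/5 control cells. All 3 membrane-bound enzymes were higher in Huh7 knockdown cells than in Huh7 control cells, with log2 fold changes from 0.18 to 0.53.

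**Figure D3:**
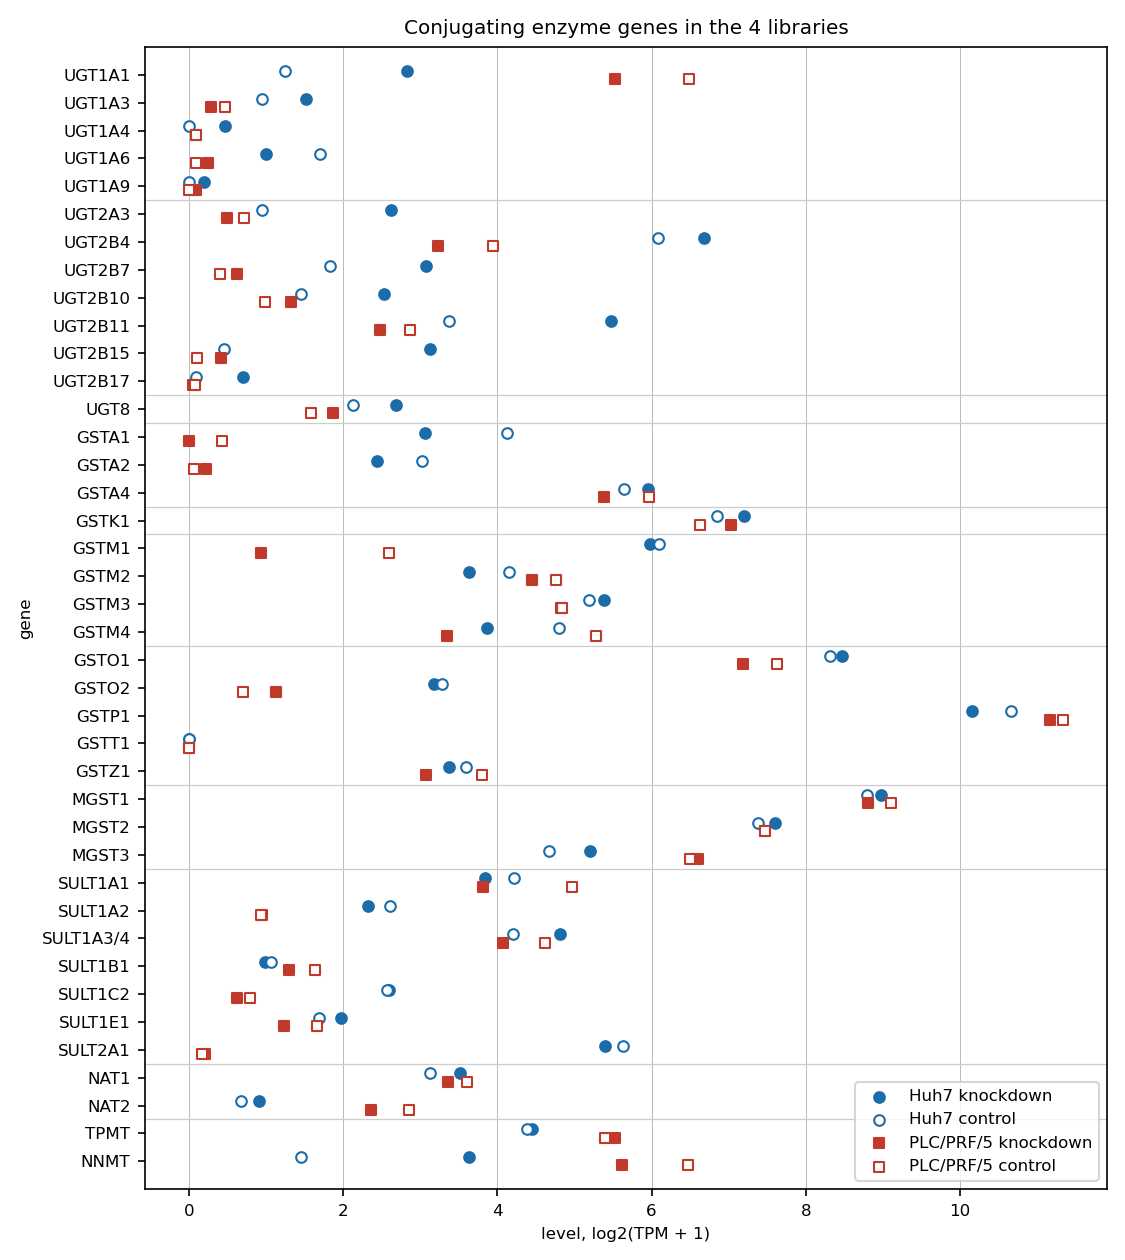
Level of each of the 40 genes (rows, by family) in the 4 libraries as log2(TPM + 1) on the horizontal axis; circles are Huh7 and squares PLC/PRF/5, filled for knockdown and open for control, each from 1 library without error bars. GSTP1 is highest in every library, between 1142 and 2583 TPM, and 34 genes reached 1 TPM in Huh7 knockdown cells, 32 in Huh7 control cells, 25 in PLC/PRF/5 knockdown cells and 24 in PLC/PRF/5 control cells.

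Of the 7 sulfotransferase genes, SULT1A1 was the one at least 2-fold apart, in PLC/PRF/5. SULT1A1, the main phenol sulfotransferase of liver, was at 13.3 TPM in Huh7 knockdown cells and 17.5 TPM in Huh7 control cells, and at 13.1 TPM in PLC/PRF/5 knockdown cells and 30.2 TPM in PLC/PRF/5 control cells. Both knockdown libraries lay below both controls, with log2 fold changes of -0.37 (Huh7) and -1.15 (PLC/PRF/5). SULT2A1, which sulfates dehydroepiandrosterone and bile acids, was at 41.2 TPM in Huh7 knockdown cells and 48.4 TPM in Huh7 control cells, against 0.16 TPM in PLC/PRF/5 knockdown cells and 0.13 TPM in PLC/PRF/5 control cells. SULT1C2 had 5.05 TPM in Huh7 knockdown cells and 4.96 TPM in Huh7 control cells, against 0.54 TPM in PLC/PRF/5 knockdown cells and 0.74 TPM in PLC/PRF/5 control cells. SULT1A2 had 3.99 TPM in Huh7 knockdown cells and 5.10 TPM in Huh7 control cells, against 0.93 TPM in PLC/PRF/5 knockdown cells and 0.91 TPM in PLC/PRF/5 control cells. The Huh7 levels of these 3 genes lay above their PLC/PRF/5 levels in both arms. SULT1A1 and SULT1A2 coding sequences were 96.8% identical. SULT1B1 lay between 0.99 and 2.10 TPM over the 4 libraries and SULT1E1, the estrogen sulfotransferase, between 1.35 and 2.92 TPM.

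SULT1A3 and SULT1A4, identical in coding sequence, encode the sulfotransferase of dopamine. Summed, they had 27.2 TPM in Huh7 knockdown cells and 17.3 TPM in Huh7 control cells, and 15.8 TPM in PLC/PRF/5 knockdown cells and 23.5 TPM in PLC/PRF/5 control cells, log2 fold changes of 0.62 (Huh7) and -0.54 (PLC/PRF/5). Taken apart, SULT1A3 was listed at 27.1 TPM in Huh7 knockdown cells and 8.67 TPM in Huh7 control cells, and SULT1A4 at 0.10 TPM in Huh7 knockdown cells and 8.67 TPM in Huh7 control cells. In PLC/PRF/5, SULT1A3 was listed at 7.91 TPM in knockdown cells and 0.66 TPM in control cells, and SULT1A4 at 7.91 TPM in knockdown cells and 22.9 TPM in control cells. The split between identical copies is not a measurement of either gene.

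NNMT, which methylates nicotinamide, was one of the genes with the largest opposite values in the lines. It had 11.4 TPM in Huh7 knockdown cells and 1.75 TPM in Huh7 control cells, and 48.2 TPM in PLC/PRF/5 knockdown cells and 87.5 TPM in PLC/PRF/5 control cells. The log2 fold change was 2.17 in Huh7 and -0.85 in PLC/PRF/5, and none of the 31-base words of its coding sequence occurred in another gene. TPMT, which methylates thiopurine drugs, had 20.9 TPM in Huh7 knockdown cells and 19.9 TPM in Huh7 control cells, and 45.1 TPM in PLC/PRF/5 knockdown cells and 41.2 TPM in PLC/PRF/5 control cells. NAT2, which acetylates isoniazid, had 0.88 TPM in Huh7 knockdown cells and 0.60 TPM in Huh7 control cells, against 4.13 TPM in PLC/PRF/5 knockdown cells and 6.23 TPM in PLC/PRF/5 control cells. For these 3 genes all PLC/PRF/5 levels lay above all Huh7 levels. NAT1, with wider tissue expression, lay between 7.77 and 11.2 TPM over the 4 libraries.

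Set side by side, the 25 genes considered in both lines often differed in direction between them. Higher in Huh7 knockdown cells and lower in PLC/PRF/5 knockdown cells, each against the control of its line, were 12 genes, 48.0%, where 14.1% of all 12063 genes considered in both lines had that pattern. The 12 were UGT1A1, UGT2B4, UGT2B11, GSTA4, GSTM3, GSTO1, MGST1, MGST2, SULT1A3 with SULT1A4, SULT1E1, NAT1 and NNMT. For 3 of them, UGT1A1, UGT2B4 and NNMT, the difference was at least 1.5-fold in both lines, where 0.431% of all genes were. The reverse at that size was seen in 0 of the 25 genes, where 0.199% of all genes were. Higher in both knockdown libraries were 5 genes (UGT2B10, UGT8, GSTK1, MGST3 and TPMT), where 46.5% of all genes were, and lower in both were 7 (GSTM1, GSTM2, GSTM4, GSTP1, GSTZ1, SULT1A1 and SULT1B1), where 22.4% of all genes were. The remaining gene, GSTO2, had the knockdown below the control in Huh7 and above it in PLC/PRF/5, where 16.9% of all genes were. Median-ratio scaling of the libraries moved the median of all genes to -0.01 in Huh7 and -0.03 in PLC/PRF/5. With it, 13 genes had the pattern of the 12, where 17.9% of all genes did, 2 genes had it at 1.5-fold in both lines, where 0.423% of all genes did, and genes higher against lower numbered 20 against 15 in Huh7 and 4 against 22 in PLC/PRF/5. The scaling turned the sign of SULT1C2 and TPMT in Huh7 and of MGST3 and TPMT in PLC/PRF/5. With 1 library per group, no test of a difference between the lines in the effect of the knockdown could be made.

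The knockdown difference shared by the lines was tested with limma on log2(TPM + 1), over 13812 genes with 1 TPM or more in at least 2 libraries, with cell line as a block. Of the 33 conjugation genes tested, 0 passed an adjusted p of 0.05 (Benjamini-Hochberg), where 1 gene of all those tested passed, 0.00724%, as lower and 0.0% as higher. SCD, the target of the knockdown, did not pass either, at -3.15 ± 0.25 (SE, adjusted p 0.128), so a gene that misses this threshold is not shown to be alike in both arms. Among the conjugation genes the smallest adjusted p was 0.16, for GSTM4, at a mean log2 fold change of -1.43 ± 0.26 (SE) and lower in the knockdown of both lines. At an unadjusted p under 0.05, 2 genes were higher (UGT2B10 and GSTK1), where 12.7% of all genes were, and 5 were lower (GSTA1, GSTM2, GSTM4, GSTP1 and SULT1A1), where 5.23% of all genes were. The labels do not say whether the libraries are from separate experiments. These p-values rest on how alike the lines moved, with 1 residual degree of freedom and 3.71 prior degrees of freedom taken from all genes.

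The levels of the conjugation genes were also compared between the lines. In the same limma fit, 14 of the 33 genes were higher in Huh7 than in PLC/PRF/5 and 7 were lower at an adjusted p of 0.05, where 28.3% of all genes tested were higher and 31.5% lower. With 21 of 33 past the test, the share was near the 59.8% of all genes. Here a p-value measures the likeness of the difference in knockdown and in control cells. SULT2A1 had the largest difference towards Huh7, 5.32 ± 0.18 on the log2 scale (SE, adjusted p 0.000199). GSTM1 followed at 4.27 ± 0.38 (adjusted p 0.00126) and GSTA1 at 3.38 ± 0.23 (adjusted p 0.00072). The other genes higher in Huh7 were UGT2B4 (2.79 ± 0.32), GSTA2, GSTO2, UGT2B7, SULT1C2, SULT1A2, UGT1A6, GSTO1, UGT2B10, UGT8 and GSTM3, the last of these at 0.45 ± 0.12 (adjusted p 0.0286). Higher in PLC/PRF/5 were UGT1A1 at -3.96 ± 0.60 (Huh7 minus PLC/PRF/5, adjusted p 0.00523) and NNMT at -3.50 ± 0.71 (adjusted p 0.012). NAT2 at -1.81, MGST3 at -1.61, TPMT at -1.05, GSTP1 at -0.84 and GSTM2 at -0.71 were the rest. UGT2B11 did not pass, at 1.75 ± 0.59 (adjusted p 0.0561). With no TPM filter, NNMT, UGT1A6, UGT2B10, UGT8 and GSTM3 no longer passed, with adjusted p between 0.0502 and 0.103. Between the control libraries alone, 10 of 33 genes were at least 2-fold higher in Huh7, where 15.8% of all genes were, and 5 at least 2-fold lower, where 14.9% were. UGT1A1 and NNMT were further apart between the control libraries than between the knockdown libraries, with UGT1A1 at 1.38 TPM in Huh7 and 88.5 TPM in PLC/PRF/5 control cells and NNMT at 1.75 TPM in Huh7 and 87.5 TPM in PLC/PRF/5 control cells.

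**Figure D4:**
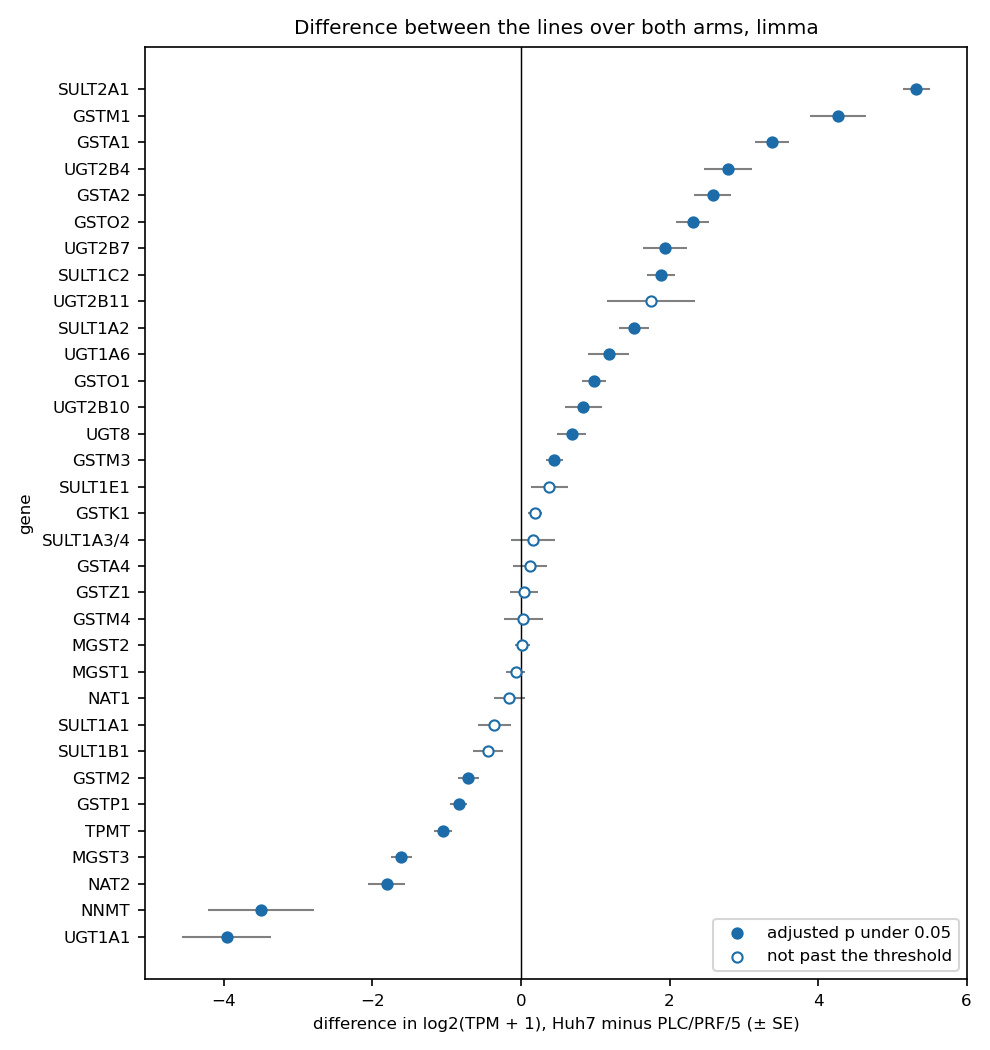
Log2 difference of each of the 33 tested genes, Huh7 minus PLC/PRF/5 from the limma fit over both arms, with its standard error as bars; filled points passed an adjusted p of 0.05. SULT2A1 lies at 5.32 at one end and UGT1A1 at -3.96 at the other.

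Other genes of the same pathways were counted from lists of cofactor supply, transport, deconjugation and regulation. None of the 4 genes of UDP-glucuronic acid supply was 2-fold apart in either line, where 4.62% of all genes considered were in Huh7 and 2.83% in PLC/PRF/5. Among 6 genes of sulfate donor supply, PAPSS2, a PAPS synthase, was the single one 2-fold apart, as higher in Huh7, where 3.09% of all genes were. It had 66.4 TPM in Huh7 knockdown cells and 22.3 TPM in Huh7 control cells, and 28.8 TPM in PLC/PRF/5 knockdown cells and 19.4 TPM in PLC/PRF/5 control cells. Its partner gene PAPSS1 had the opposite order, with log2 fold changes of -0.49 (Huh7) and -0.31 (PLC/PRF/5). Of 8 genes of glutathione supply, 1 was 2-fold higher in Huh7 (CHAC1, which degrades glutathione, 1.32), where 3.09% of all genes were. Another 1 was 2-fold lower in Huh7 (SLC7A11, the cystine importer, -1.12), where 1.53% of all genes were. None was 2-fold apart in PLC/PRF/5, where 2.83% of all genes were. The subunits of glutamate-cysteine ligase, the first enzyme of glutathione synthesis, had log2 fold changes of 0.39 (GCLC) and 0.54 (GCLM) in Huh7, and of 0.86 (GCLC) and 0.66 (GCLM) in PLC/PRF/5. None of 5 methyl donor genes and none of the deconjugation genes considered (6 in Huh7 and 5 in PLC/PRF/5) was 2-fold apart in either line. The shares of all genes were again 4.62% in Huh7 and 2.83% in PLC/PRF/5. MAT1A, the hepatocyte form of methionine adenosyltransferase, had log2 fold changes of -0.23 (Huh7) and -0.85 (PLC/PRF/5), and the steroid sulfatase STS had -0.06 (Huh7) and -0.71 (PLC/PRF/5).

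Efflux pumps that carry conjugates out of the cell were measured with 7 genes. In Huh7, 2 of 7 considered were at least 2-fold higher in knockdown cells, where 3.09% of all genes were. In PLC/PRF/5, 1 of 6 considered was, where 1.72% of all genes were. ABCC2, which exports conjugates into bile, was at 110 TPM in Huh7 knockdown cells and 42.7 TPM in Huh7 control cells, and at 406 TPM in PLC/PRF/5 knockdown cells and 178 TPM in PLC/PRF/5 control cells. At least 2-fold higher with the knockdown in both, it had log2 fold changes of 1.35 (Huh7) and 1.18 (PLC/PRF/5) and did not pass the limma test across lines (adjusted p 0.128). ABCC3, the basolateral pump, was at 20.98 TPM in Huh7 knockdown cells and 6.05 TPM in Huh7 control cells, and under 1 TPM in both PLC/PRF/5 libraries. ABCC4 was lower in both knockdown libraries, with log2 fold changes of -0.36 (Huh7) and -0.84 (PLC/PRF/5). ABCC1 was higher in both, with 0.3 (Huh7) and 0.41 (PLC/PRF/5). Of 18 regulators, 17 were considered in Huh7, of which 2 were 2-fold higher, where 3.09% of all genes were, and 16 in PLC/PRF/5, of which 2 were 2-fold lower, where 1.11% of all genes were. AHR was at 165 TPM in Huh7 knockdown cells and 67.7 TPM in Huh7 control cells, and at 155 TPM in PLC/PRF/5 knockdown cells and 131 TPM in PLC/PRF/5 control cells. NR1I2 was at 4.84 TPM in Huh7 knockdown cells and 1.83 TPM in Huh7 control cells, and under 0.1 TPM in both PLC/PRF/5 libraries. Both of these sensors were thus at least 2-fold higher in Huh7 and the PLC/PRF/5 level of NR1I2 was near 0. NR1H4, the bile acid receptor, was at 99.0 TPM in Huh7 knockdown cells and 133 TPM in Huh7 control cells, and at 0.44 TPM in PLC/PRF/5 knockdown cells and 5.68 TPM in PLC/PRF/5 control cells. CEBPA, a hepatocyte transcription factor, was at 350 TPM in Huh7 knockdown cells and 444 TPM in Huh7 control cells, and at 48.4 TPM in PLC/PRF/5 knockdown cells and 98.3 TPM in PLC/PRF/5 control cells. These were the 2 regulators at least 2-fold lower in PLC/PRF/5. Of 11 NRF2 targets outside the set, HMOX1, which degrades heme, was the one 2-fold apart, with log2 fold changes of 0.66 (Huh7) and 1.28 (PLC/PRF/5). This was 1 of 11 in PLC/PRF/5, where 1.72% of all genes were at least 2-fold higher. PGD, of the pentose phosphate pathway, had -0.82 (Huh7) and -0.84 (PLC/PRF/5), and the ketosteroid reductase AKR1C1 had -0.06 (Huh7) and -0.96 (PLC/PRF/5). The part of these regulators in the conjugation genes was not tested.

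**Figure D5:**
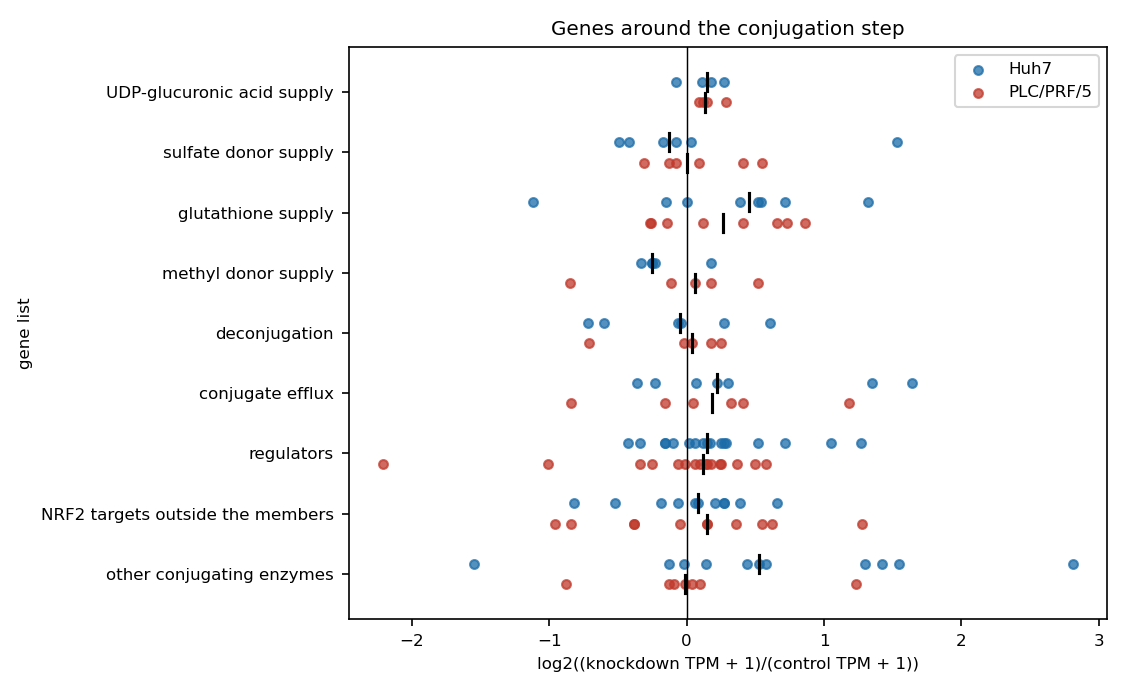
Log2 fold change (knockdown over control, TPM + 1) of the genes of each pathway list considered in Huh7 (upper row of a list) and in PLC/PRF/5 (lower row), 1 point per gene, with a black line at the median. BAAT (2.81) and ABCC3 (1.64) are the highest in Huh7, and NR1H4 (-2.21) is the lowest in PLC/PRF/5.

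Among 26 other conjugating enzymes, 11 were considered in Huh7, of which 4 were 2-fold higher and 1 lower, where 3.09% of all genes were higher and 1.53% lower. In PLC/PRF/5, 7 were considered, of which 1 was 2-fold higher, where 1.72% of all genes were. BAAT, which joins bile acids to taurine or glycine, was at 8.06 TPM in Huh7 knockdown cells and 0.29 TPM in Huh7 control cells, and at 6.26 TPM in PLC/PRF/5 knockdown cells and 2.10 TPM in PLC/PRF/5 control cells. Both knockdown libraries were above both controls, with log2 fold changes of 2.81 (Huh7) and 1.23 (PLC/PRF/5). GLYATL1, a glycine acyltransferase relative, was at 8.07 TPM in Huh7 knockdown cells and 2.09 TPM in Huh7 control cells, and under 0.1 TPM in both PLC/PRF/5 libraries. SULT1C4 was at 87.6 TPM in Huh7 knockdown cells and 32.2 TPM in Huh7 control cells, and under 1 TPM in both PLC/PRF/5 libraries. SULT2B1 was lower with the knockdown in PLC/PRF/5, at 5.79 TPM in knockdown cells and 11.5 TPM in control cells. Its log2 fold change there was -0.88, and it was under 1 TPM in both Huh7 libraries. The remaining genes 2-fold apart in Huh7 were GSTT2B, at 1.46 TPM in knockdown cells and listed at 0 in control cells, and GSTT2, listed at 0 in knockdown cells and at 1.93 TPM in control cells, near-identical copies whose separate values are uncertain.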

How the data were processed

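The authors deposited, for each of the 4 libraries, 1 table of TPM (abundance scaled by transcript length and library total) per gene symbol to 2 decimals. Total RNA was extracted with TRIzol, per the labels' protocols. Per the submitters' processing notes, cutadapt, RSEM 1.2.21 and the hg19 build were used. For the aligner, the annotation and strandedness, the tool or setting was not given in the sources used here. As RSEM divides reads that fit several genes by likelihood, values of near-identical genes are uncertain. TPM keeps no depth, so the depth is unknown, no counting interval was computed, and a 0 is given as listed at 0. Because TPM has a fixed total, abundant transcripts that differ shift the rest.

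The 41 symbols and the pathway lists were chosen with earlier results of these data known. Fold changes used a pseudocount of 1. Genes at 1 TPM or more in at least 1 library of a pair were counted past 2-fold. The limma fit (limma 3.58.1, R 4.3.3) had cell line and arm as terms, a variance trend, two-sided tests and Benjamini-Hochberg adjustment over 13812 genes. Its median estimates were checked on simulated data with the same difference in both lines and a spread taken from the fit. That simulation cannot show how the p-values hold where the lines respond differently. Values in every library are given for genes past 2-fold in a line, at 50 TPM or more in any library, or past a test, with values or fold changes for up to 4 genes per pathway list. Genes given outside this rule were chosen after their values were seen: SULT1A3 and SULT1A4 apart, GSTT2, GSTT2B, UGT2B28, UGT2A2 and UGT2A1. Alternatives were pseudocounts of 0.1 and 5, a filter of 5 TPM or none, median-ratio scaling, SULT1A3 and SULT1A4 apart, UGT1A genes summed, no variance trend, no cell line block and no arm term.

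Promoter windows came from RefSeq (GRCh38.p14), with 32 genes matched, and coding sequences from GENCODE 29 transcripts, with 40 of the 41 symbols matched. Neither is the authors' build, so no coordinates of theirs are used. Promoter windows were not used here for UGT2B4, UGT2B17, GSTT1, MGST2, SULT1A1, SULT1A2, NAT1, NAT2 and NNMT. Python 3.11.15, pandas 2.3.3 and matplotlib 3.10.9 were used.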

Additional observations from a re-analysis of the deposited data

Results flagged for a closer look

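In 3 genes the knockdown libraries moved in opposite directions in the lines by at least 1.5-fold each. UGT1A1 had a log2 fold change of 1.58 in Huh7 and -0.97 in PLC/PRF/5. UGT2B4 had 0.60 in Huh7 and -0.71 in PLC/PRF/5. NNMT had 2.17 in Huh7 and -0.85 in PLC/PRF/5. With 1 library per group, the difference between the lines was not tested for any of them. Albumin, a hepatocyte marker, had the same pair of directions, with log2 fold changes of 0.69 (Huh7) and -0.73 (PLC/PRF/5), and its part in the result was not tested. After median-ratio scaling, 2 genes had this pattern in place of 3, where 0.423% of all genes did, against 0.431% before scaling.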

How the results depend on the processing

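With a pseudocount of 5, the count of genes at least 2-fold higher in Huh7 knockdown cells was 3 in place of 7 (1.14% of all genes at that setting), that at least 2-fold lower 0 in place of 1 (0.675%), that at least 2-fold lower in PLC/PRF/5 knockdown cells 1 in place of 3 (0.414%), and that at least 2-fold higher in Huh7 between control libraries 6 in place of 10 (8.7%). The Huh7 lower count was 2 with a pseudocount of 0.1 (2.74% of all genes), with median-ratio scaling (1.91%) and with SULT1A3 and SULT1A4 apart (1.54%), and with those copies apart the PLC/PRF/5 higher count was 1 in place of 0 (1.72%). With a filter of 5 TPM, 7 of 23 genes passed as higher in Huh7 between the lines, in place of 14 of 33, where 27.4% of all genes passed, since fewer genes were tested. The knockdown test across lines passed 0 genes under each alternative run, with a smallest adjusted p between 0.129 and 1.0. No value of a gene past a threshold turned its direction. The genes that a pseudocount of 5 took under 2-fold were UGT1A1 (0.80), UGT2A3 (0.77), UGT2B7 (0.72), UGT2B10 (0.53) and GSTA1 (-0.80) in Huh7 and GSTM1 (-0.76) and SULT1A1 (-0.96) in PLC/PRF/5. Without the arm term, UGT2B10, UGT8, GSTM2 and GSTM3 no longer passed the line difference, and with a pseudocount of 5 UGT2B10 did not pass (adjusted p 0.0626). UGT2B11 passed with a pseudocount of 0.1 (adjusted p 0.0485). Median-ratio scaling took UGT1A1 in PLC/PRF/5 (-1.11) and GSTM4 in Huh7 (-1.03) past 2-fold, and a pseudocount of 0.1 took UGT1A6 in Huh7 (-1.08) past it. Except for the smaller number of genes under the filter of 5 TPM, the cause of these changes was not tested. No library could be left out, because each group has 1. The fit across lines pairs knockdown with control by cell line. No paired analysis by replicate number was possible because each group holds 1 library. Without the cell line block, 0 genes passed and 1 was lower at an unadjusted p under 0.05.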
